A study of Rattus norvegicus with 58 samples.

Results

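Organic ion and ABC transporters carry bile acids, drugs, hormones and lipids across liver cell membranes, and 60 of their genes could be followed among the 14217 genes with a single symbol on the array. Members were the genes whose symbol in the platform annotation begins with Slco, Slc22a, Abca, Abcb, Abcc, Abcd or Abcg, apart from Abcb11 and Abcc2, and each was read from its probe set of highest mean. The 60 genes comprised 13 Slco, 16 Slc22a, 8 Abca, 6 Abcb, 8 Abcc, 3 Abcd and 6 Abcg members, with 82 probe sets in all. Abcb1b had no probe set with a single symbol and was not analysed here.

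Liver RNA of 58 male rats was hybridised, 1 array per rat, the animals being 17 weeks old and fasted overnight. The heterogeneous stock (HS), an outbred colony descended from inbred founders, gave 23 glucose-intolerant and 23 glucose-normal rats, grouped by their titles (high or low glucose), since descriptions of the intolerant animals also use the word normal. Each of 6 inbred strains (ACI, BN, BUF, F344, M520, WKY) gave 2 arrays, and no glucose status is given for them. No drug, diet or genetic change is named for any group, and the labels say that rats were housed in pairs. All values are log2 expression as deposited, so 1 unit is a doubling, and the level of a gene is compared only with itself in other rats, since probe sets differ in brightness.

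Uptake and export at the liver cell are shared between these families. Members of Slco (organic anion transporting polypeptides) and Slc22a (organic anion, cation and carnitine transporters) take up solutes from blood, without direct use of ATP. The ABC proteins spend ATP. Abcb1a and Abcg2 export drugs into bile, Abcb4 moves phosphatidylcholine, and Abcg5 and Abcg8 together export sterols. Abcc3 and Abcc4 return conjugates and bile acids to blood. Abca1 and Abcg1 load lipoproteins with cholesterol, and Abcd2 and Abcd3 bring fatty acyl groups into peroxisomes.

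The array medians lay between 5.33 and 5.39. The 6 hepatocyte markers had a mean level between 13.09 and 13.67 on every array, and all 4 kidney markers had means below the array medians. Arrays of the same strain correlated at 0.989 in BUF, 0.990 in WKY and 0.992 to 0.997 in the other strains. The labels name neither litters nor days, so p-values measure the spread between these arrays, which may be partly technical. Of the 60 transporters, 21 had a mean below the median of the array medians, among them 8 of 13 Slco members, 6 of 16 Slc22a members and 4 of the members that differed among strains.

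Expression of 16 transporters differed among the 6 strains. In limma's moderated F test over the 12 inbred arrays, with Benjamini-Hochberg adjustment over 31042 probe sets and a threshold of 0.05, the count was 16 of 60 members (26.7%), beside 13.8% of all 14217 genes. They were Slco1a5, Slco2a1, Slco5a1, Slc22a3, Slc22a7, Slc22a15, Abca4, Abca8, Abca8a, Abcb1a, Abcb6, Abcc4, Abcc8, Abcc9, Abcg2 and Abcg3l1, that is 3 of 13 Slco, 3 of 16 Slc22a, 3 of 8 Abca, 2 of 6 Abcb, 3 of 8 Abcc and 2 of 6 Abcg members and 0 of 3 Abcd members. The median range of the 6 strain means was 0.49 over the members and 0.44 over all genes. Of the 16, 8 spanned 1 or more, and 10 kept the call whichever array was left out. The count fell to 7 in a plain linear model without moderated variances, where the calls over all 31042 probe sets fell from 3700 to 1036. It also fell without either ACI array, as did the count over all probe sets.

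Each strain was then set against the mean of the other 5, which gave 35 calls over 17 members. ACI was higher for 3 of 60 members (1.46% of all genes) and lower for 2 (0.985%). BN was higher for 5 (3.36%) and lower for 3 (2.39%). BUF was higher for 0 (3.0%) and lower for 6 (3.86%), F344 higher for 2 (0.795%) and lower for 2 (0.935%). M520 was higher for 1 (1.34%) and lower for 7 (4.22%), and WKY higher for 2 (3.53%) and lower for 2 (2.26%). Both directions together gave 5 calls in ACI, 8 in BN, 6 in BUF, 4 in F344, 8 in M520 and 4 in WKY. With 2 arrays per strain these counts moved with single arrays, and so did those over all probe sets. When an array is left out its strain keeps 1, taken to vary like the others. ACI had 2 calls without either of its arrays. BN had 3 without BN array 1 and 5 without BN array 2. BUF had 10 without BUF array 1, 2 without BUF array 2, 3 without ACI array 1 or BN array 1, and 2 without ACI array 2, M520 array 1 or M520 array 2. F344 had 2 without F344 array 1 and 1 without F344 array 2. M520 had 2 without either of its arrays and 5 without ACI array 1. WKY had 2 without WKY array 1 or ACI array 2. A fit over all 58 arrays lost 25 of the 35 calls and a plain linear model lost 22. Of the 35, 10 held whichever array was left out, and 5 held under every alternative run: Abcg2 in ACI, Abcg3l1, Abcc4 and Abcc8 in BN, and Abcc4 in M520. These genes have 1 probe set each, so the alternative that reads a gene's other probe set could not change their calls.

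**Figure D1:**
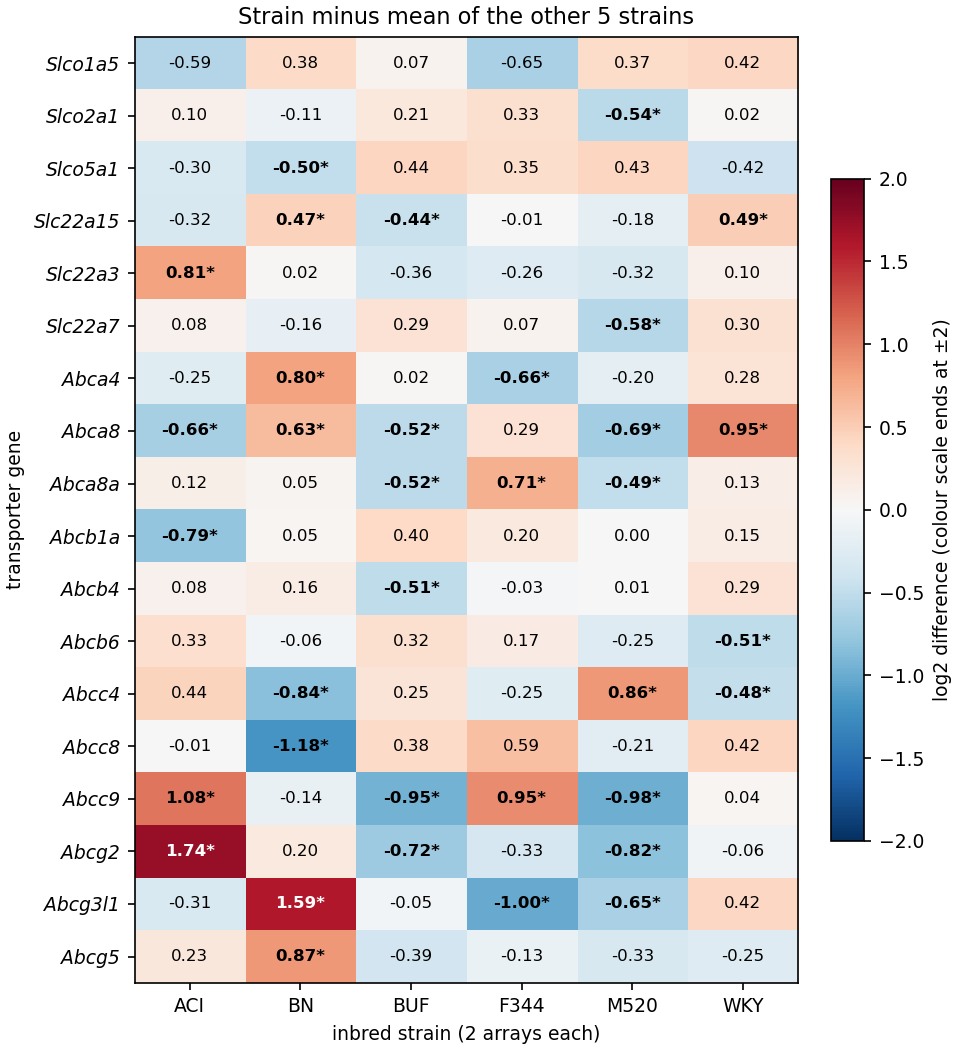
Log2 difference of each strain (columns, 2 arrays) from the mean of the other 5 strains for the 18 members that passed the F test or a strain's own test (rows, ordered by family); colour and printed value give the difference, and an asterisk marks an adjusted p under 0.05. The highest values are those of Abcg2 in ACI (1.74) and Abcg3l1 in BN (1.59), and the lowest is that of Abcc8 in BN (-1.18).

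Among the drug exporters, Abcg2, which pumps drugs, sulphate conjugates and urate, was highest in ACI. The 2 arrays read 8.43 and 8.23 in ACI, 7.32 and 6.76 in BN, 6.96 and 6.68 in WKY, 6.72 and 6.48 in F344, 6.63 and 5.92 in BUF, and 6.28 and 6.10 in M520. Neither ACI array overlapped the other 10 inbred arrays, while the 46 HS rats ran from 6.11 to 8.24 and so covered nearly the whole span of the strains. ACI lay 1.74 ± 0.18 (SE) above the mean of the other strains (adjusted p = 3.69e-04), which is 3.35-fold, and the F test gave an adjusted p = 0.00104. M520 was lower by a difference of -0.82 ± 0.18 (adjusted p = 0.0293), a call lost without either M520 array or either ACI array. BUF was lower by a difference of -0.72 ± 0.18 (adjusted p = 0.0436). The BUF call was lost without ACI array 1 or 2, BN array 1, BUF array 1, F344 array 1 or 2, M520 array 1 or 2, or WKY array 2.

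Abcb1a, a P-glycoprotein that exports bulky drugs, was lowest in the strain where Abcg2 was highest. ACI read 7.17 and 7.35, and the other 10 inbred arrays read between 7.63 and 8.32. ACI lay -0.79 ± 0.15 from the mean of the other strains (adjusted p = 0.0156), and the call was lost without either ACI array. The F test (adjusted p = 0.0378) lost its call without either ACI array, either BN array, either BUF array or WKY array 1. A dimmer probe set for Abcb1a read 6.41 and 6.59 in ACI and from 6.07 to 7.41 in the other strains, so the groups overlapped there (difference -0.38, adjusted p = 0.392), although the 2 probe sets followed each other over the 46 HS rats (r = 0.824, rho = 0.748). Abcb4, the canalicular phospholipid flippase, read 9.44 and 9.14 in BUF and 9.61 to 10.13 elsewhere, a difference of -0.51 ± 0.13 (adjusted p = 0.04). The F test over strains did not call Abcb4 (adjusted p = 0.116), and its BUF call was lost without ACI array 1 or 2, BN array 1, BUF array 2, F344 array 1, or M520 array 1 or 2. Abcb6, a porphyrin transporter, read 7.87 and 8.27 in WKY, where array 1 was below every other inbred array and array 2 was above M520 array 1 at 8.20. The WKY difference was -0.51 ± 0.12 (adjusted p = 0.0386), and the call was lost without ACI array 1 or 2, BN array 1 or 2, F344 array 2, M520 array 1 or 2, or WKY array 1. Its F test (adjusted p = 0.0458) was lost without any 1 of those arrays, F344 array 1 or BUF array 2. Abcb8, Abcb9 and Abcb10, carriers of organelle membranes, gave adjusted p-values from 0.449 to 0.788 in the F test.

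**Figure D2:**
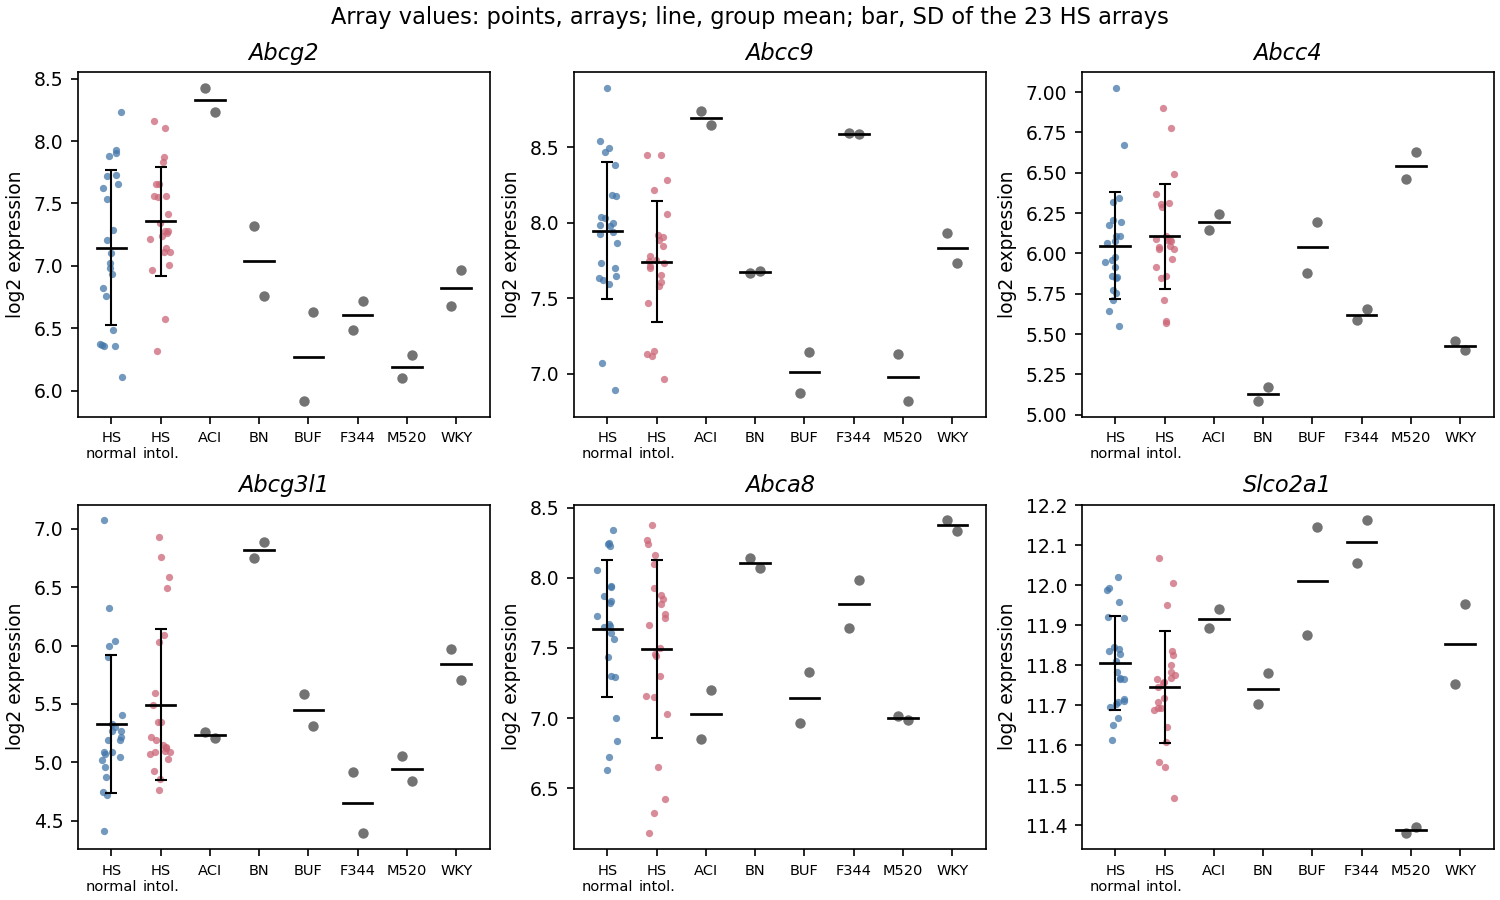
Log2 expression of 6 transporters (panels) on every array, with the 23 normal and 23 intolerant HS rats at the left (points; line, mean; bar, SD) and the 2 arrays of each inbred strain at the right (points; line, mean); the vertical scales differ between panels. Abcg2 is highest in ACI, Abcc9 is high in ACI and F344 and low in BUF and M520, Abcc4 in BN and WKY lies below every HS rat, and Slco2a1 in M520 lies below every HS rat.

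In the Abcc family, Abcc4, which exports cyclic nucleotides and bile acids to blood, was high in M520 and low in BN and WKY. It read 6.46 and 6.63 in M520, 6.15 and 6.25 in ACI, 5.88 and 6.20 in BUF, 5.59 and 5.65 in F344, 5.46 and 5.40 in WKY, and 5.09 and 5.17 in BN. All 4 arrays of BN and WKY lay below the lowest of the 46 HS rats (5.55), and M520 lay inside the HS range, which ended at 7.03. The difference was 0.86 ± 0.10 in M520 (adjusted p = 0.00104), -0.84 ± 0.10 in BN (adjusted p = 7.18e-04) and -0.48 ± 0.10 in WKY (adjusted p = 0.0238). The F test gave an adjusted p = 2.95e-04, and of these calls only that in WKY was lost in any alternative, among them leaving out ACI array 2 or either WKY array.

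Abcc8 and Abcc9 encode SUR1 and SUR2, the sulphonylurea receptors that regulate ATP-sensitive potassium channels rather than move a solute. Abcc9 fell into groups: 8.74 and 8.65 in ACI and 8.59 on both arrays of F344, then 7.93 and 7.74 in WKY and 7.67 and 7.68 in BN, then 7.15 and 6.87 in BUF and 7.13 and 6.82 in M520. The high pair of strains did not overlap the middle pair, nor the middle pair the low pair, and the HS rats ran from 6.90 to 8.89, with BUF array 1 and M520 array 2 below them. Differences were 1.08 ± 0.11 in ACI (adjusted p = 3.63e-04), 0.95 ± 0.11 in F344 (adjusted p = 0.00102), -0.95 ± 0.11 in BUF (adjusted p = 8.45e-04) and -0.98 ± 0.11 in M520 (adjusted p = 7.24e-04), and the F test gave an adjusted p = 3.92e-05. A fit over all 58 arrays, where the spread of the HS rats enters, lost each of the 4 strain calls and kept the F test. The other bright probe set of Abcc9 read 7.49 to 7.74 in ACI and F344 and 5.88 to 6.67 in the other 4 strains. There BUF differed by -0.94 (adjusted p = 0.00144) and M520 by -0.62 (adjusted p = 0.0164), so the 2 probe sets moved the same way. Abcc8 was low in BN, at 4.46 and 4.39, against 5.19 to 6.08 in the other strains. Both BN arrays lay below the lowest HS rat (4.92), and the BN difference was -1.18 ± 0.14 (adjusted p = 6.37e-04), with an F test at an adjusted p = 0.00246.

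The other exporters of conjugates did not pass the F test. Abcc3, which returns bilirubin and drug glucuronides to blood, read 4.78 to 5.80 over the inbred arrays (adjusted p = 0.242). Abcc6, the transporter that underlies ATP release from hepatocytes, read 11.26 and 10.66 in BUF and at most 10.48 outside BUF and F344 (adjusted p = 0.0861). For Abcc1, an exporter of glutathione conjugates, Abcc5 and Abcc10, the adjusted p lay between 0.125 and 0.66. Abcc6 and Abcc8 lie on chromosome 1 with 3 protein-coding genes between them in the GRCr8 annotation, and only Abcc8 was called in BN.

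Within the lipid-carrying Abca family, Abca8 showed the most strain calls of any member, in 5 of the 6 strains. It is a broad lipid and drug exporter. It read 8.41 and 8.33 in WKY, 8.14 and 8.07 in BN, 7.99 and 7.64 in F344, 7.33 and 6.97 in BUF, 7.20 and 6.85 in ACI, and 7.02 and 6.99 in M520. WKY and BN overlapped neither each other nor the rest, BUF, ACI and M520 overlapped one another, and the HS rats ran from 6.18 to 8.38. Differences were 0.95 ± 0.13 in WKY (adjusted p = 0.00138), 0.63 ± 0.13 in BN (adjusted p = 0.0159), -0.69 ± 0.13 in M520 (adjusted p = 0.0135), -0.66 ± 0.13 in ACI (adjusted p = 0.0222) and -0.52 ± 0.13 in BUF (adjusted p = 0.0409). The BN, M520 and ACI calls were lost without either array of their own strain. The BUF call was lost without ACI array 2, either BN array, either BUF array, either M520 array or WKY array 1. The WKY call and the F test (adjusted p = 5.57e-04) were lost in a fit over all 58 arrays. The other probe set of Abca8, dim at 2.53 to 2.91 over the inbred arrays, did not pass the F test (adjusted p = 0.569), and its BUF difference was 0.01.

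Markers of liver cells, hepatocytes included, moved with some of the same strains. Of 6 hepatocyte markers 2 passed the F test, Tat (higher in BN) and Apoa1 (higher in WKY). The mean level over the 6 was 13.62 to 13.67 in BN and 13.51 to 13.61 in WKY. It was 13.23 to 13.43 in ACI, 13.33 to 13.35 in F344, 13.30 to 13.32 in BUF and 13.27 to 13.36 in M520. Of 8 Kupffer cell markers 3 passed the F test. Clec4f, which defines these resident macrophages, was higher in BN and WKY and lower in BUF and M520, as Abca8 was. No other Kupffer marker was called in more than 1 strain. Cd163 was higher in BN, Csf1r lower in BUF and C1qa lower in M520. In ACI, where Abca8 was lower, no Kupffer marker was called. The mean level over the 8 Kupffer markers was 8.86 to 9.79 in BN, 9.02 to 9.33 in WKY, 8.72 to 9.03 in ACI, 8.58 to 8.77 in F344, 8.32 to 8.62 in BUF and 8.25 to 8.43 in M520. Of 5 endothelial markers 3 passed, all higher in BN, with a mean level of 8.89 to 9.12 there, 8.63 to 8.78 in WKY, 8.50 to 8.56 in ACI, 8.17 to 8.46 in F344, 8.03 to 8.28 in BUF and 7.99 to 8.27 in M520. Of 7 stellate cell markers 3 passed, with a mean level of 6.99 to 7.66 in WKY and 7.03 to 7.16 in BN, 6.34 to 6.51 in BUF, 6.67 to 6.75 in F344, 6.78 to 6.81 in M520 and 6.90 to 7.0 in ACI. Of these markers 1 stellate gene, and none of the others, had a mean below the array medians. The part of these cells in the transporter differences was not tested, and in whole liver fewer cells of a type and less RNA per cell cannot be told apart.

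Abca8a, the neighbour of Abca8 on chromosome 10 with no protein-coding gene between them, followed a different order. It read 10.52 and 10.39 in F344, 10.14 and 9.81 in WKY, 9.98 and 9.96 in ACI, 9.92 and 9.90 in BN, 9.55 and 9.32 in BUF, and 9.53 and 9.40 in M520. The difference was 0.71 ± 0.11 in F344 (adjusted p = 0.00635), -0.52 ± 0.11 in BUF (adjusted p = 0.0215) and -0.49 ± 0.11 in M520 (adjusted p = 0.029). The F344 call was lost without either F344 array, the BUF call without BUF array 2, and the M520 call without either M520 or either ACI array, while the F test (adjusted p = 0.00395) kept its call throughout. BUF and M520 were low for both neighbours, while ACI was low for Abca8 alone among the calls.

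Abca4, known for moving retinoids in the retina, lay below the array medians in liver. BN read 4.83 and 4.53, above every one of the 46 HS rats (highest 4.42), and F344 read 3.51 and 3.42, below the other 10 inbred arrays. The BN difference was 0.80 ± 0.11 (adjusted p = 0.00147) and was lost without BN array 1, and the F344 difference was -0.66 ± 0.11 (adjusted p = 0.0113) and was lost without either F344 array. Abca1, which exports cholesterol to apolipoprotein A-I, gave an adjusted p = 0.326 at its brightest probe set, with 8.48 and 8.62 in BN and 8.62 to 9.05 in the other strains. A nearly as bright probe set for Abca1 read 9.45 and 9.58 in BN and 8.20 to 8.89 in the others, a BN difference of 0.94 (adjusted p = 2.91e-04). BN was not called at the brightest probe set (-0.28, adjusted p = 0.216) or at 2 dimmer ones (0.08 and -0.23, adjusted p = 0.822 and 0.675). Over the 46 HS rats the 2 brightest had r = -0.385 and rho = -0.134 (permutation test, adjusted p = 0.0135 and 0.512). The ranks thus did not bear out an opposition, and the BN call of Abca1 depends on the probe set read. Abca2, Abca3, Abca5 and Abca7, with adjusted p-values from 0.131 to 0.31, did not pass.

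In the Abcg family, Abcg3l1, a gene annotated by its relation to Abcg3, had the widest range of strain means of all members, 2.16. It read 6.89 and 6.75 in BN, 5.97 and 5.71 in WKY, 5.59 and 5.31 in BUF, 5.26 and 5.20 in ACI, 5.05 and 4.84 in M520, and 4.91 and 4.39 in F344. No other inbred array reached the BN arrays, while 3 HS rats did (6.76, 6.93 and 7.07). The difference was 1.59 ± 0.14 in BN (adjusted p = 5.41e-05), which is 3.02-fold, -1.0 ± 0.14 in F344 (adjusted p = 0.00332, lost without F344 array 2) and -0.65 ± 0.14 in M520 (adjusted p = 0.0248, lost without ACI array 1 or either M520 array). Abcg1, an exporter of cholesterol to lipoproteins, and Abcg4 did not pass (adjusted p = 0.381 and 0.813).

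Abcg5 and Abcg8 each supply a chain of the pump that secretes sterols into bile, and they start back to back on chromosome 6 with 205 bases between their start sites. The whole of that stretch is shown because the levels of the 2 genes varied together from rat to rat. It lies at chr6:15717731-15717935 of GRCr8, from RefSeq, on the plus strand, and capitals mark AGATAA, the letters bound by GATA factors, which occur at 2 places.

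Abcg5 and Abcg8, between their start sites: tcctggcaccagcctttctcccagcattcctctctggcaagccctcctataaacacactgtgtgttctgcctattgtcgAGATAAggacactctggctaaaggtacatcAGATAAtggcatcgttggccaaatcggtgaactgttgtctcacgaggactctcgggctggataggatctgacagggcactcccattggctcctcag

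AGATAA on either strand was held by 8.351% of 33469 RefSeq promoters over the 205 bases before the start site, and by 10.3% over 250 bases. Of the members, 52 of 60 were matched to a promoter by gene identifier, and 4 of these 52 (7.692%) held AGATAA over 250 bases: Abca4, Abcg5, Abcg8 and Slc22a17. Abcg5 and Abcg8 share the stretch above, so the same sites count for both. TGACNNNGC, the core of the antioxidant response element, occurred at 1 place in the shared stretch, and 8.593% of all promoters held it over a window of 205 bases. The exact direct repeat read by liver X receptors is not in this window, and 0.002988% of all promoters held it. Such matches describe the letters and show no binding.

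Over the 46 HS rats the levels of Abcg5 and Abcg8 had r = 0.853 and rho = 0.784 (permutation test, 100000 resamples, 2-sided, p = 1e-05, the smallest these can give; adjusted over 5 gene pairs, 5e-05). The relation was r = 0.893 within the 23 normal rats, 0.833 within the 23 intolerant rats and 0.803 without the 2 rats farthest from the Abcg5 median. The same 4 rats were lowest for both genes: normal rat 36 read 5.79 for Abcg5 and 3.58 for Abcg8, normal rat 16 read 6.45 and 3.79, intolerant rat 33 read 6.62 and 3.99, and intolerant rat 17 read 6.78 and 4.07. Intolerant rat 12 was highest for both, at 9.04 and 6.98. Among the strains BN read 7.96 and 7.75 for Abcg5 and 5.31 and 5.60 for Abcg8. BN was called for Abcg5 (0.87 ± 0.21, adjusted p = 0.0344), although ACI array 2 at 7.68 came close, the F test did not pass (adjusted p = 0.0915), and the call was lost without either BN array, BUF array 2 or M520 array 1. For Abcg8 the F test gave an adjusted p = 0.118, and the 2 F344 arrays alone read 4.26 and 5.61.

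**Figure D3:**
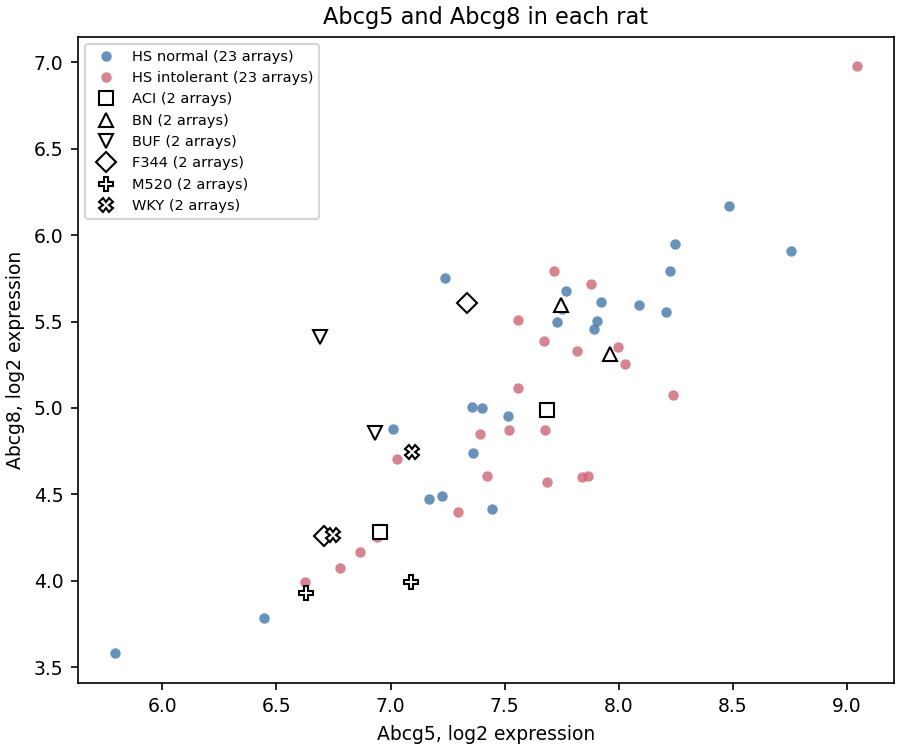
Abcg8 against Abcg5, both in log2 expression, in 23 normal (blue) and 23 intolerant (red) HS rats and in the 12 inbred rats (open symbols by strain). The HS points lie along a rising band in both glucose groups, from 5.79 and 3.58 to 9.04 and 6.98.

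The other 4 pairs measured did not pass over the 46 HS rats with the brightest probe sets. Abca1 and Abcg1, both cholesterol exporters, had r = 0.00332 and rho = 0.0369 (permutation test, adjusted p = 0.982 for r). Abcc3 and Abcc4 had r = 0.219 and rho = 0.28 (adjusted p = 0.282). Slco1b2 and Slc22a7 had r = -0.128 and rho = -0.0319 (adjusted p = 0.499). With another probe set for Slco1b2, r was -0.338 (permutation test, adjusted p = 0.0336) and rho was -0.255 (adjusted p = 0.132). The ranks thus did not bear out a relation there. Slco1a1 and Slco1a4, neighbours on chromosome 4, had r = 0.206 and rho = 0.163 (adjusted p = 0.282). With the other probe set of Slco1a4 they had r = 0.775 and rho = 0.763 (permutation test, adjusted p = 3e-05). The 2 Slco1a4 probe sets had r = 0.63 and rho = 0.567 with each other, so this relation rests on the probe set read. Adjustment with other probe sets covered only the pairs that have one. Within the normal rats the brightest Slco1a4 probe set gave r = 0.449 (adjusted p = 0.0792) and within the intolerant rats r = -0.00873 (adjusted p = 0.994).

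None of the Abcd members passed the F test. Abcd3, which imports branched-chain acyl groups and bile acid intermediates, read 11.53 to 12.11 over the inbred arrays (adjusted p = 0.211). Abcd2, a carrier of very long chain acyl groups, read 3.15 to 3.76, below the array medians (adjusted p = 0.61), and Abcd4, a carrier linked to cobalamin, read 6.36 to 7.01 (adjusted p = 0.298).

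Among the Slco uptake carriers, the liver's main importers of bile acids and drugs did not pass. Slco1b2, the hepatocyte importer of bilirubin and statins, read 11.65 to 12.24 over the 12 inbred arrays (adjusted p = 0.151). Slco2b1 read 9.60 to 9.97 (adjusted p = 0.519). Slco1a4, a carrier of cardiac glycosides and bile acids, read 11.81 and 12.85 on the 2 WKY arrays and 12.63 to 13.26 in the other strains (adjusted p = 0.31). Slco1a1, a carrier of sulphated steroids, read 10.26 and 10.61 in M520 and 9.77 and 8.87 in BUF, and the strain means spanned 1.12 (adjusted p = 0.0878). For Slco1a1 and Slco1a4 a pair of arrays from 1 strain differed by up to 0.91 and 1.04.

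The Slco members that passed were others. Slco2a1, the prostaglandin importer, read 11.38 and 11.39 in M520, below all 46 HS rats (lowest 11.47), and 11.70 to 12.16 in the other strains. The M520 difference was -0.54 ± 0.10 (adjusted p = 0.014), and the call was lost without either M520 array. The F test (adjusted p = 0.0294) was lost without either ACI, BN or M520 array or F344 array 2. Another probe set for Slco2a1 read 7.08 and 7.72 in M520 and 7.61 to 8.53 elsewhere, with an M520 difference of -0.68 (adjusted p = 0.0815). Slco5a1, an orphan of the family with no settled solute, read 4.74 and 4.64 in BN, 4.93 and 4.77 in ACI and 4.91 and 4.60 in WKY, against 5.27 to 5.67 in BUF, F344 and M520. These 2 sets of strains did not overlap (F test, adjusted p = 0.0101), and the other probe set, at an adjusted p = 0.0117, had BN at 4.67 and 4.47. The BN difference was -0.50 ± 0.12 (adjusted p = 0.0435), lost without either ACI, BN, F344 or M520 array or WKY array 2. Slco1a5, a bile acid carrier below the array medians in liver, read 3.77 and 3.56 in ACI and 3.66 and 3.57 in F344, against 4.04 to 4.82 in the other 4 strains (F test, adjusted p = 0.0305). No strain was called for Slco1a5 alone, and the F test was lost without either ACI, BN or F344 array. On chromosome 4, Slco1c1, Slco1b2, Slco1a4, Slco1a1, Slco1a3, Slco1a6 and Slco1a5 follow each other with no protein-coding gene between them in GRCr8. Of these 7 neighbours only Slco1a5 passed the F test.

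In the Slc22a family, Slc22a7 (OAT2, an importer of organic anions and cyclic nucleotides) was low in M520. M520 read 9.91 and 9.85, below the lowest HS rat (9.98) and below the other inbred arrays, which read 10.19 to 10.82. The difference was -0.58 ± 0.12 (adjusted p = 0.0202), lost without either M520 array. The F test (adjusted p = 0.042) was lost without any 1 array of ACI, BN, F344 or M520 or WKY array 1. Slc22a3 (OCT3, an importer of monoamines and organic cations) lay far below the array medians. ACI read 3.94 and 4.02, above all 46 HS rats (highest 3.60), and the other inbred arrays read 2.97 to 3.57. The ACI difference was 0.81 ± 0.12 (adjusted p = 0.00413), which with the F test (adjusted p = 0.0101) was lost without either ACI array. Slc22a2 adjoins Slc22a3 on chromosome 1 and did not pass (4.82 and 4.91 in ACI, F test adjusted p = 0.278).

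Slc22a15, a carrier of zwitterions, read 6.60 and 6.35 in BN and 6.55 and 6.45 in WKY, against 5.63 to 6.12 in the other 4 strains, with which they did not overlap. The F test (adjusted p = 0.00579) kept its call in every alternative run. Differences were 0.49 ± 0.10 in WKY (adjusted p = 0.0165, lost without WKY array 1), 0.47 ± 0.10 in BN (adjusted p = 0.0211, lost without BN array 1) and -0.44 ± 0.10 in BUF (adjusted p = 0.0303). The BUF call was lost without either ACI, BUF or M520 array. Averaged over the 2 arrays of a strain, the Kupffer, endothelial, stellate and hepatocyte marker levels given above were likewise highest in BN and WKY. Single arrays overlapped ACI for Kupffer markers (8.86 in BN, 9.03 in ACI) and stellate markers (6.99 in WKY, 7.0 in ACI). No stellate marker was called in BN and no endothelial marker in WKY. The part of these cells was not tested. Slc22a5 (OCTN2, the carnitine importer) read 8.74 to 9.67 and Slc22a4 and Slc22a21, its neighbours on chromosome 10, read 5.60 to 6.69 and 3.86 to 4.34. None of these 3 passed the F test (adjusted p = 0.259 to 0.778).

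Of all members, Slc22a8 (OAT3, an importer of organic anions such as steroid sulphates) varied most among the HS rats. Its SD was 1.03 over 46 rats, followed by 0.68 for Abcg8, 0.62 for Abcg3l1 and 0.59 for Abcg5, beside a median SD of 0.21 over the members and 0.17 over all genes. Normal rats read 8.03 to 10.66 with a median of 9.99, and intolerant rats 5.15 to 11.02 with a median of 9.83. Intolerant rat 42 stood alone at 5.15, next came intolerant rat 20 at 7.32 and normal rat 5 at 8.03. These 3 rats were singled out after their values were seen. The other probe set of Slc22a8 read 3.31 in intolerant rat 42 and had r = 0.937 and rho = 0.807 with the brighter one over the 46 rats (r = 0.904 without the 2 farthest rats). The 2 WKY arrays also lay apart, at 9.71 and 11.34, and the F test did not pass (adjusted p = 0.355).

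Slc22a25, an orphan relative that adjoins Slc22a8 on chromosome 1 on the opposite strand, was low in the same rats. It read 3.72 in intolerant rat 42, 4.98 in intolerant rat 20 and 5.0 in normal rat 5, which were places 1, 2 and 4 from the lowest of the 46, whose median was 5.94. Slc22a6 (OAT1), the neighbour on the other side, read 5.24, 5.09 and 5.70 in these rats around an HS median of 5.41, so it was not low in all 3. Intolerant rat 42 was also the highest HS rat for Abcc3, at 7.96 against 5.09 to 6.41 in the other 45, and for Abcb1a at 9.31, and Abca5 at 6.19. Its median correlation with the other HS arrays over all probe sets was not low, at place 19 of 46 counted from the lowest.

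**Figure D4:**
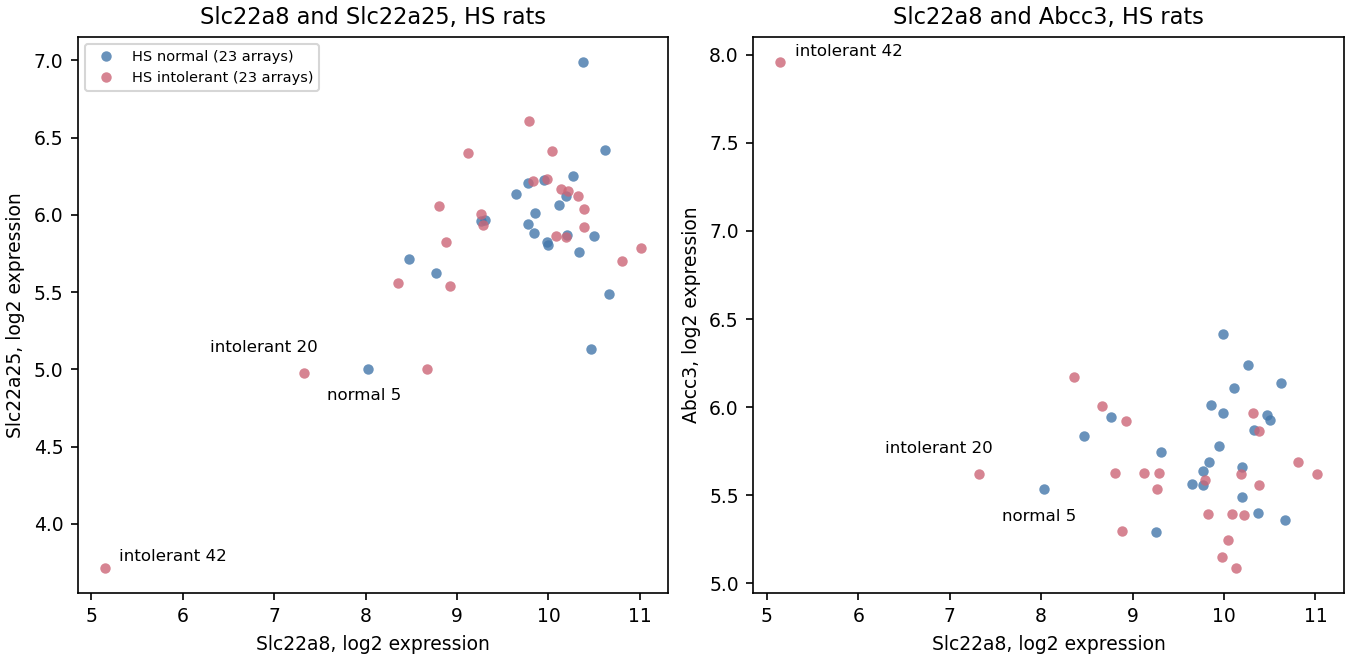
Slc22a25 (left) and Abcc3 (right) against Slc22a8, all in log2 expression, in 23 normal (blue) and 23 intolerant (red) HS rats; the 3 rats lowest for Slc22a8 are labelled. Intolerant rat 42 lies apart in both panels, at 5.15 for Slc22a8, 3.72 for Slc22a25 and 7.96 for Abcc3, while the next 2 rats are low for Slc22a25 and not high for Abcc3.

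The 250 bases before the start sites of these 2 neighbours are shown because both levels were low in those rats. They come from RefSeq on GRCr8, at chr1:214927034-214927283 on the plus strand for Slc22a8 and chr1:214862341-214862590 on the minus strand for Slc22a25. Capitals mark GTTAAT, the letters of an HNF1 site's core, which in Slc22a25 lies on the other strand and is printed as its reverse complement ATTAAC.

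Slc22a8: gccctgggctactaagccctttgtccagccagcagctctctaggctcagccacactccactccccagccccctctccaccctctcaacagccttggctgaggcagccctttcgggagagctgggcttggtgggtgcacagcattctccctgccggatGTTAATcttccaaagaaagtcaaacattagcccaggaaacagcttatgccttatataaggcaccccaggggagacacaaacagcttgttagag

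Slc22a25: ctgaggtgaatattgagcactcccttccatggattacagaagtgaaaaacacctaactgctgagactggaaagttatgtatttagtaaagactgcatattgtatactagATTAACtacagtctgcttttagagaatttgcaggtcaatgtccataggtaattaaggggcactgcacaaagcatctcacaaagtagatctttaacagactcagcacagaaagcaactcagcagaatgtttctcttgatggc

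GTTAAT was found on either strand in 6.454% of the 33469 promoters over 250 bases and in 4 of the 52 member promoters (7.692%), those of Slc22a8, Slc22a25, Slc22a24 and Slco1b2.

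No transporter passed the test of the intolerant against the normal HS rats, the comparison for which these animals were chosen. In limma's moderated test over the 46 HS arrays, 0 of 60 members passed an adjusted p of 0.05, and 0.0% of all genes did. A plain linear model also called 0. At an unadjusted p under 0.05 there were 4 of 60 members (6.67%), beside 1223 of 14217 genes (8.60%). The smallest p was that of Slc22a3, whose mean was 3.24 ± 0.17 (SD, n = 23) in the normal group and 3.10 ± 0.16 (SD, n = 23) in the intolerant group. The groups overlapped, and Slc22a3 differed by -0.14 ± 0.05 (SE) with an adjusted p = 0.445. The others were Abcc5, an exporter of cyclic nucleotides (-0.11, adjusted p = 0.592), Slc22a24, a carrier of steroid conjugates (-0.11, adjusted p = 0.618), and Abcc1 (-0.09, adjusted p = 0.624). Next in order of p came Slc22a6 (-0.10, adjusted p = 0.637) and the lipid transporter Abca3 (0.08, adjusted p = 0.678).

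The glucose differences were bounded closely for most members. The 95% confidence interval of the difference lay within 0.25 of 0 for 46 of 60 members and within 0.5 for 56. The 4 wider intervals were those of Slc22a8 (-0.41, from -0.99 to 0.17), Abcg8 (-0.23, from -0.62 to 0.16), Abcg2 (0.21, from -0.10 to 0.52) and Abcg3l1 (0.17, from -0.19 to 0.52). Without intolerant rat 42, left out after the values were seen, the Slc22a8 difference was -0.21 (from -0.67 to 0.24). The mean was lower in intolerant rats for 42 members (70.0%) and for 8180 of all genes (57.5%), with a median difference of -0.03 over the members and -0.01 over all genes. By family, the mean was lower for 13 of 16 Slc22a, 10 of 13 Slco, 5 of 8 Abca, 5 of 8 Abcc, 4 of 6 Abcg, 3 of 3 Abcd and 2 of 6 Abcb members. Intervals were narrow for the main hepatocyte importers: Slco1b2 differed by 0.02 (from -0.10 to 0.14), Slco2b1 by -0.02 (from -0.09 to 0.05) and Slc22a7 by -0.03 (from -0.13 to 0.08).

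**Figure D5:**
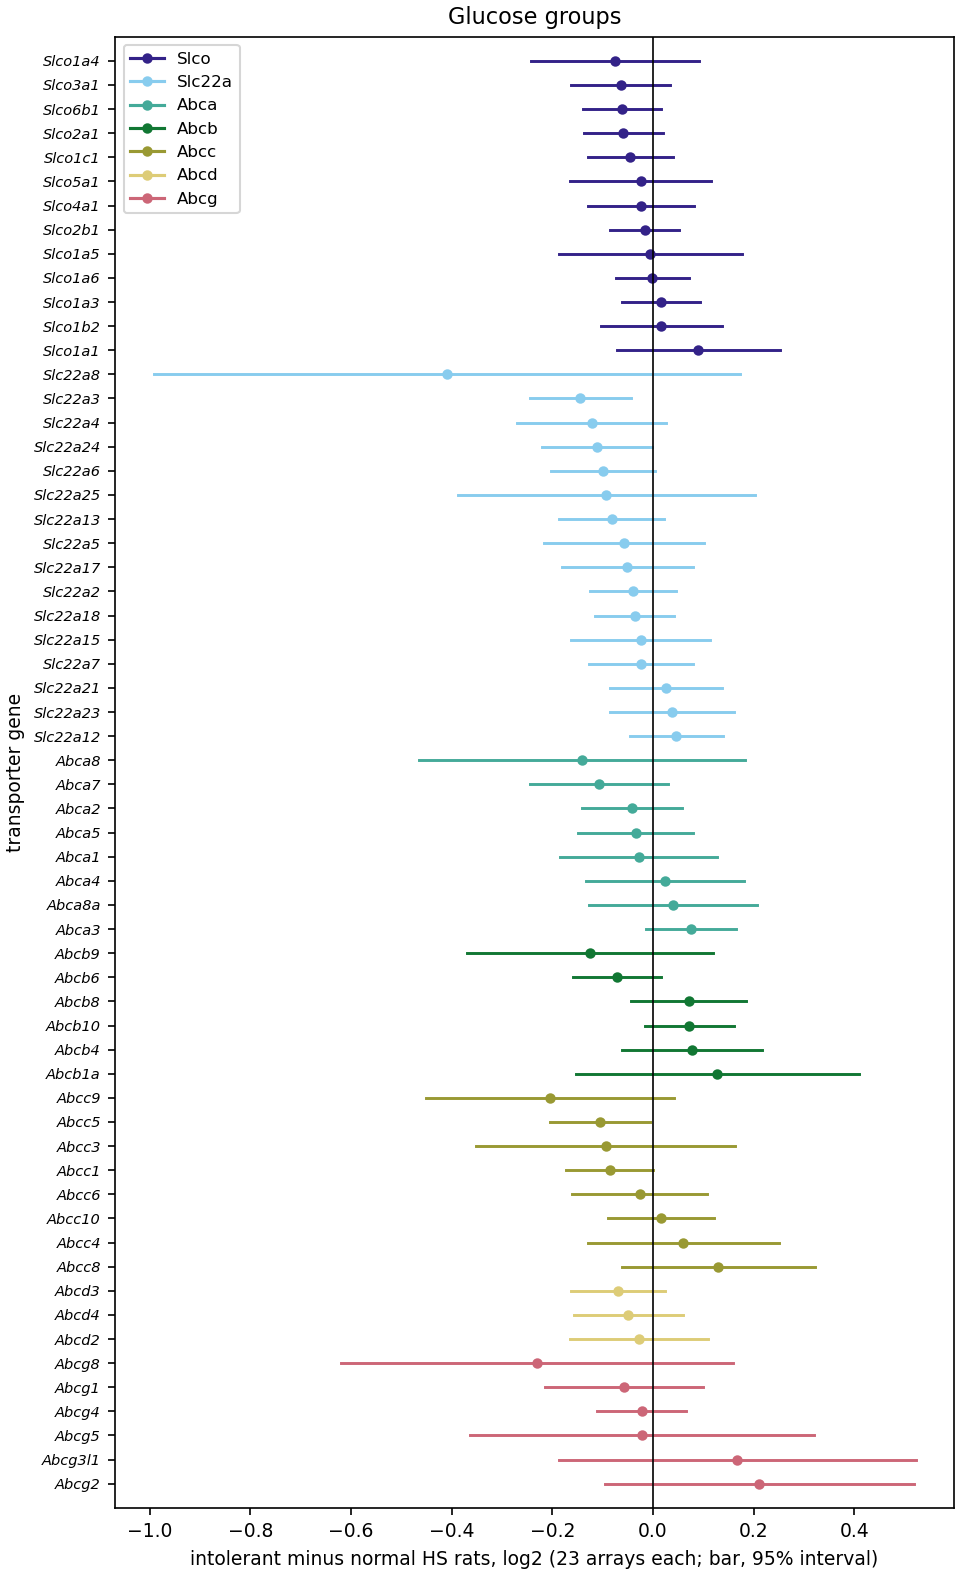
Log2 difference, intolerant minus normal HS rats (23 arrays each), for the 60 members (rows, grouped and coloured by family), with the 95% confidence interval as a bar and a line at 0. All intervals but those of Slc22a3, Abcc5, Slc22a24 and Abcc1 include 0, none of these 4 passed after adjustment, and Slc22a8 has the widest interval, from -0.99 to 0.17.

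Both arrays of a strain fell outside all 46 HS rats, on the same side, for 6 of the 60 members and for 12.5% of all genes. These were Slc22a3 in ACI, Abca4, Abcc4 and Abcc8 in BN, Slc22a7 and Slco2a1 in M520, and Abcc4 in WKY. At least 1 inbred array was outside the HS range for 30 of the 60 members (50.0%) and for 59.8% of all genes, so the share of the members was not above that of all genes on either count.

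The genes around these transporters gave 0 glucose calls in every list, and some strain calls. Of 14 measured regulators 5 passed the F test: Nr1i3 (CAR, a xenobiotic receptor; higher in F344, lower in WKY), Nr1h4 (FXR, the bile acid receptor; lower in BN), Ppara (higher in WKY, lower in BUF), Nfe2l2 (NRF2; lower in BN) and Ahr (lower in BUF). Nr1i2 (PXR), Hnf4a and Nr1h3 (LXR alpha) were among those that did not. Of 10 measured PXR, CAR and NRF2 targets 6 passed, with the widest range in Nqo1 (3.13, adjusted p = 2.16e-05; higher in ACI and BUF, lower in BN, F344 and M520). Of 11 other liver carriers 2 passed, Slc28a2 and Slc16a1, while Slc10a1, the bile acid importer, did not (adjusted p = 0.445). Of 7 ABC genes outside the naming rule 2 passed, the peptide transporter chains Tap1 and Tap2.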

How the data were processed

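The authors' deposited values are log2 expression per probe set on Affymetrix rat arrays, hybridised with amplified, biotin-labelled liver RNA per the labels' protocols. Partek is named, with no version, in the submitters' processing notes; the background correction and the normalisation were not given in the sources used here. Arrays have no read depth, and their number limits the precision. Of 31042 probe sets, 20826 carried a single symbol, 436 several and 9780 none in the platform annotation. For each gene the probe set of highest mean was read, and all 60 members were found in the GRCr8 gene table. Values were tested as deposited, unfiltered, in R 4.3.3 with limma 3.58.1 (lmFit, eBayes), with Benjamini-Hochberg adjustment over the 31042 probe sets and a threshold of 0.05. The glucose groups were fitted on 46 arrays (44 residual degrees of freedom), the strains on 12 (6 residual degrees of freedom). Correlations used 100000 permutations in Python with scipy 1.17.1, and the scripts were tested on simulated data.

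The members, gene lists and tests were chosen with earlier results of these data known. Genes were named by a rule: the 6 members of smallest p in the glucose comparison, members past the F test whose strain means span 1 or more, up to 3 called members per strain and direction, the 4 of largest SD among HS rats, and members of known liver role. The other called members were added. The groups came from the sample titles, and the labels name no scan date or other batch. Alternatives were quantile normalisation, centring, brighter probe sets only, 1 probe set per gene, trend and robust variances, array weights, a plain linear model, all 58 arrays in 1 fit, the replicate number as a block, the other probe set of a gene and leaving out single arrays. Only 18 members have another probe set, and the 42 with 1 probe set were reread unchanged in that alternative.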

Additional observations from a re-analysis of the deposited data

How the results depend on the processing

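With 2 arrays per strain the strain calls are thin, and the marginal ones depend on single arrays. The glucose comparison called 0 members in every alternative run, including that without intolerant rat 42, which was chosen after seeing the data. Over all 31042 probe sets it called 0 as well, except 1 after quantile normalisation and 12 with array weights. A fit over all 58 arrays gave 2 member calls in ACI, 4 in BN, 2 in BUF, 0 in F344, 3 in M520 and 1 in WKY. Over all 31042 probe sets that fit called 264 in ACI (752 in the main fit), 960 in BN (1454) and 1776 in BUF (1789). It called 140 in F344 (499), 1264 in M520 (1445) and 1096 in WKY (1471). A plain linear model gave 7 in the F test, and 2 in ACI, 4 in BN, 1 in BUF, 1 in F344, 3 in M520 and 2 in WKY. Over all probe sets it called 1036 in the F test, 172 in ACI, 583 in BN and 285 in BUF. In F344 it called 134, in M520 455 and in WKY 518. Array weights gave 10 in ACI and 1 in BUF, beside 2673 and 538 over all probe sets. The other probe sets of the members gave 3 in ACI. The cause of these moves was not tested. Leaving out single arrays gave 10 to 19 in the F test, 2 to 6 in ACI, 3 to 8 in BN, 2 to 10 in BUF, 1 to 6 in F344, 2 to 9 in M520 and 2 to 6 in WKY. With the other probe sets r was 0.775 for Slco1a1 and Slco1a4 and -0.338 for Slco1b2 and Slc22a7, where rho (-0.255) did not pass. The BUF difference of Abca8 turned from -0.52 to 0.0101. Over single genes 967 values kept their side of the threshold, 204 lost the call and 1 reversed. Direction was required to hold only where a call was involved. The 967 include rereadings of the same probe set for members that have only 1. They also include the genes named from the glucose comparison, which had no call to lose. Replicate numbers did not pair the strains in general. Of 15 correlations of the array 1 minus array 2 differences, that of BUF and F344 was 0.42. The others lay between -0.146 and 0.168. With the replicate number as a block the F test called 16 members, of which 15 were shared with the fit without it: the call of Slc22a7 was lost and Abcg8 was called. The strain tests with the block called 6 in ACI, 9 in BN, 8 in BUF, 4 in F344, 9 in M520 and 4 in WKY.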

Other observations

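Several transporters varied more among the outbred rats than most genes did and were not called in the glucose comparison. Abcg2 ran from 6.11 to 8.24, Abca8 from 6.18 to 8.38 and Abcc9 from 6.90 to 8.89 over the 46 HS rats, and these were also among the genes with the widest strain differences. Abcg3l1 was near its median of 5.19 in most HS rats and reached 6.58 to 7.07 in 4 of them, intolerant rats 46, 11 and 43 and normal rat 38, the range in which both BN arrays lay. Over the 18 members with several probe sets, the 2 brightest followed each other closely over the HS rats for Slc22a8 (r = 0.937), Abcc9 (r = 0.842), Abcb1a (r = 0.824) and Slco1b2 (r = 0.745). They did not for Abcc5 (r = 0.0204), Abcg1 (r = -0.0273) and Slco2b1 (r = 0.0678), nor for Abca8 (r = 0.151), Slco1a3 (r = 0.104), Slco3a1 (r = 0.108) and Slco4a1 (r = 0.147). For Abca1 r was -0.385, while rho was -0.134 (permutation test, adjusted p = 0.512 for rho). Statements on these 8 genes rest on the probe set read. Of the PXR, CAR and NRF2 targets, Cyp3a2, a steroid hydroxylase, was lowest in intolerant rat 42, the rat with the lowest Slc22a8, and this was noticed after the values were seen.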
